A study of Mus musculus with 16 samples.

Results

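The complement and coagulation proteins of blood plasma were examined as 1 set of 43 genes in mouse liver. The set held complement components, their soluble regulators and receptors, clotting factors, the fibrinogen chains, fibrinolytic proteins and anticoagulants. Its members were taken by gene symbol from the array annotation and were 43 of the 24357 genes tested. All 43 had a probe that passed the filter on dim probes. Signal was well above background on all 16 arrays for 40 of them, and on 6 arrays for C5ar1, 6 for Cfd and 5 for C7. By what is known of their source, 35 are made by hepatocytes, 6 by macrophages and other myeloid cells (C1qa, C1qb, C1qc, Cfp, C3ar1 and C5ar1) and 2 elsewhere (C7 in mesenchymal cells, Cfd in adipocytes).

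All animals were male mice of the inbred strain BALB/c on regular chow, and had reached 6 to 8 weeks of age before treatment. They were wild type (WT) or lacked Lcn2, the gene of lipocalin 2, a secreted iron-scavenging protein that liver releases during inflammation (Lcn2-/-). Per the study's methods, the Lcn2-/- line was made on a mixed background of other strains and then backcrossed to BALB/c. CCl4 is a solvent that hepatocytes turn into a toxic radical, and repeated doses scar the liver. It was diluted 1:5 in corn oil and injected into the peritoneum at 0.5 ml/kg, 2 times per week for 4 weeks, with livers taken 48 h after the last dose. Controls had corn oil per the study's methods. The 16 Agilent 1-colour arrays measured control livers (4 WT, 3 Lcn2-/-) and CCl4 livers (5 WT, 4 Lcn2-/-). The labels name replicates without saying that each came from a separate animal, so the p-values measure the spread between these samples. Signal is given on a log2 scale after quantile normalization, on which a difference of 1 is a doubling, and adjusted p is from limma after Benjamini-Hochberg over all genes tested.

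Complement is a chain of proteases that marks and lyses cells. It is entered through C1q bound to antibody or dying cells, through mannose-binding lectins and their proteases, or by spontaneous activation of C3, and the entries meet at C3 and end in a pore built from C5 to C9. Coagulation is a parallel chain of proteases that ends in thrombin and fibrin. Hepatocytes release most of these proteins into plasma, while resident liver macrophages are a main source of C1q.

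Lcn2 itself was lower in every Lcn2-/- array (10.47 to 12.25) than in every WT array (13.79 to 17.57), though still well above background on all 7. The share of spots well above background ran from 51.6% to 60.9% over the arrays, and no gene spot was saturated. The tissue label was met by its markers. With quantile normalization the mean log2 signal of 11 hepatocyte genes stayed between 18.30 and 18.51, and 0 of these 11 passed in either response. With each array scaled by its 75th percentile, 4 of the 11 passed in WT (median -0.50) and 0 in Lcn2-/- (median -0.52). Slide 1 carried all 7 controls and WT CCl4 array 1, and slide 2 carried the other 8 CCl4 arrays. The Lcn2-/- response and the slide therefore cannot be told apart, except through that 1 WT array. The 2 control arrays numbered 3 stood apart from the other controls. The mean log2 signal of 10 macrophage genes was 14.36 on WT control 3 and 13.61 on Lcn2-/- control 3, against 11.91 to 12.75 on the other 5 controls. For the C1q chains, Cfp and C3ar1, and for C5ar1 in WT, differences are given with and without these 2 arrays. Calls on marker lists are given over all arrays only. In bulk liver, fewer cells of a type and less RNA per cell cannot be told apart.

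In WT mice 8 of the 43 members passed the test (18.6%), against 16.8% of all genes. C3ar1 alone was higher under CCl4 (2.33% of members, 8.01% of all genes), and Masp1, Masp2, Cfd, C6, C8a, C8b and F11 were lower (16.3% of members, 8.8% of all genes). In Lcn2-/- mice 3 members passed (6.98%, against 12.2% of all genes). These were C3ar1, higher (2.33%, against 6.57%), and Masp1 and C8b, lower (4.65%, against 5.61%). Groups did not overlap for 7 members in WT (16.3%, against 17.4% of all genes) and for 11 in Lcn2-/- (25.6%, against 24.8%). The median log2 difference of the members was -0.0034 in WT and 0.0144 in Lcn2-/-, beside -0.0315 and -0.0226 over all genes. With quantile normalization the share of members called was thus near that of all genes in WT and below it in Lcn2-/-. With each array scaled by its 75th percentile it was 39.5% in WT, against 21.1% of all genes, and 14% in Lcn2-/-, against 13.3%, so the reading of these shares depends on the scaling.

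**Figure D1:**
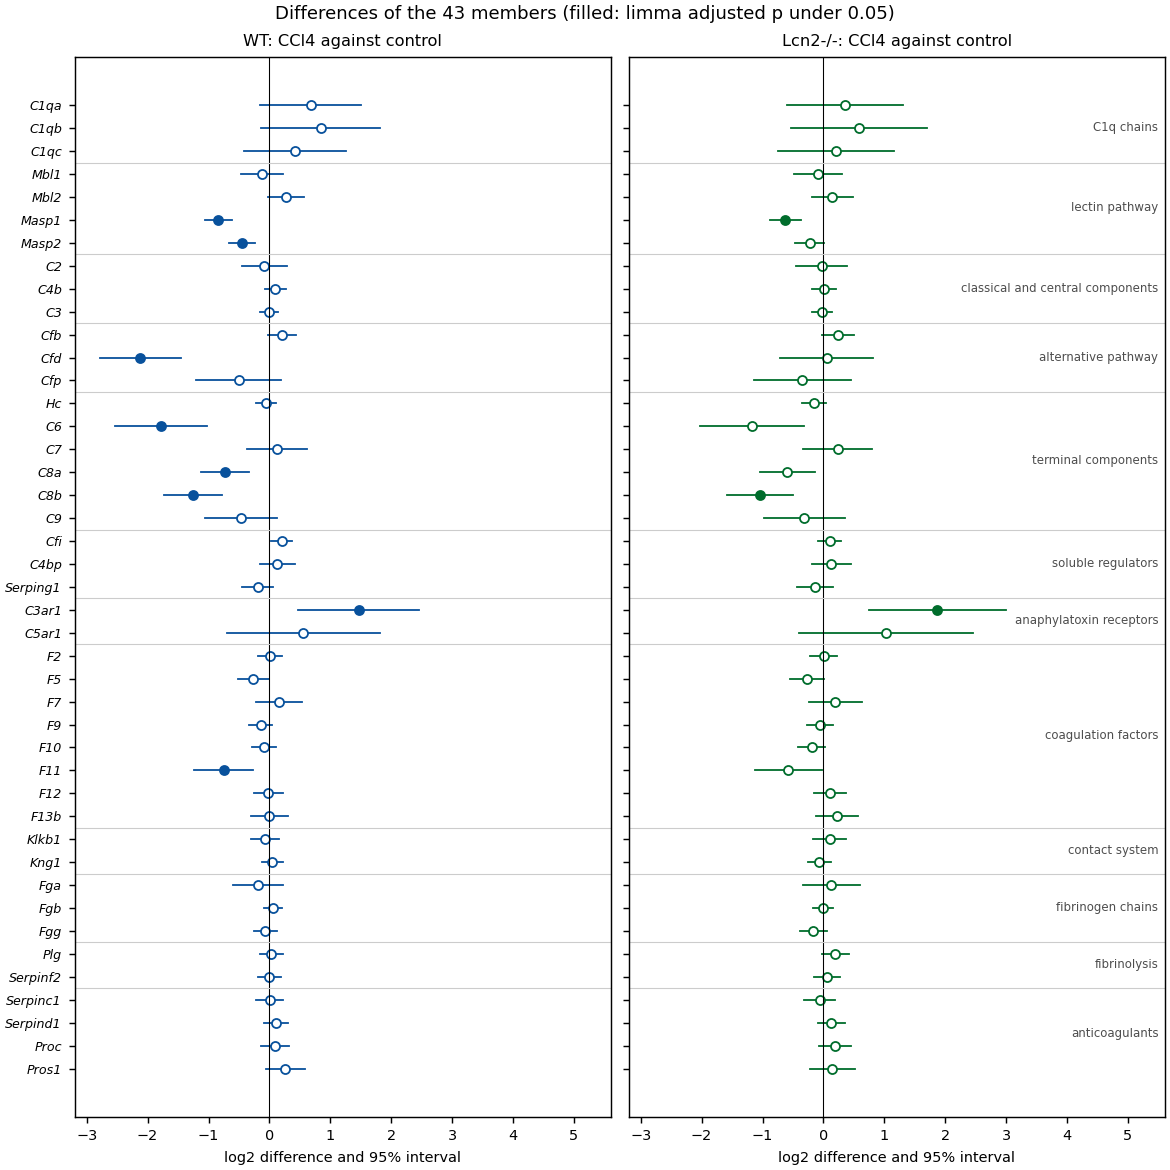
Log2 difference between CCl4 and control livers (x axis, with 95% interval) for each of the 43 members, in WT on the left and Lcn2-/- on the right. Filled points passed the test (limma adjusted p under 0.05). The lower members C6, C8b, Masp1 and Cfd stand to the left in WT, C3ar1 to the right in both genotypes, and most hepatocyte-made members lie within 0.3 of 0.

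The 3 chains of C1q, the recognition molecule of the classical pathway, come from neighbouring genes. Their probes lie within 15.9 kb of chromosome 4, from 136436578 to 136452468 (mm9). The first 30 bases of each probe are shown because these are the sequences on which the macrophage signal was read, on the minus strand.
C1qa: ccggccagctttctcagccattcggcagaa
C1qb: attctggggactacggggctacacagaaag
C1qc: tctgggaaccacctaatggtattattcctg

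C1qa read 12.29, 12.58, 14.09 and 13.06 in WT controls and 13.66, 14.09, 13.61, 13.43 and 13.60 in WT CCl4 livers. In Lcn2-/- it read 12.66, 12.36 and 14.38 in controls and 13.64, 13.62, 13.43 and 13.25 under CCl4. Both control arrays numbered 3 sat at or above the highest CCl4 array of their genotype, so the groups overlapped, while the other controls lay below every CCl4 array. C1qb read 11.42, 11.36, 13.23 and 12.60 in WT controls and 13.34, 13.29, 12.64, 12.91 and 12.82 in WT CCl4 livers. Lcn2-/- livers read 11.75, 11.30 and 13.73 in controls and 13.07, 12.80, 13 and 12.51 under CCl4. The same 2 control arrays were the high ones, and WT control 4 at 12.60 was next. C1qc read 12.80, 13.62, 14.52 and 13.05 in WT controls and 13.63, 14.51, 14.30, 13.57 and 13.57 in WT CCl4 livers. The Lcn2-/- arrays read 13.01, 13.04 and 14.64 in controls and 14.04, 14.06, 13.59 and 13.36 under CCl4. WT control 2 reached the CCl4 range as well, so 2 of the 4 WT controls overlapped with CCl4 for this chain.

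None of the chains passed the test over all arrays. In WT the log2 difference was 0.68 (SE 0.388, adjusted p = 0.262) for C1qa, 0.85 (SE 0.456, adjusted p = 0.23) for C1qb and 0.42 (SE 0.391, adjusted p = 0.505) for C1qc. In Lcn2-/- it was 0.35, 0.58 and 0.20, with adjusted p from 0.507 to 0.816. The spread of the controls (SD 0.762 to 1.29 over the 3 chains) exceeded that of the CCl4 groups (0.185 to 0.454). Without both control arrays numbered 3, a choice made after seeing the data, C1qa rose by 1.04 in WT (adjusted p = 0.0018) and 0.97 in Lcn2-/- (0.0117). C1qb rose by 1.21 (0.00783) and 1.32 (0.0178) in that fit, while C1qc, at 0.76 (0.0628) and 0.74 (0.151), did not pass. With array weights, which give less weight to arrays far from their group, C1qa (0.93, adjusted p = 0.0447) and C1qb (1.13, adjusted p = 0.0369) passed in WT. The WT value moved to 0.44 for C1qa without WT control 1. That of C1qc was 0.19, 0.27 and 0.27 without WT control 1, WT control 4 and WT CCl4 2 in turn. Without Lcn2-/- control 1 or 2, the Lcn2-/- difference was 0.11 or -0.04 for C1qa, 0.33 or 0.10 for C1qb and -0.08 or -0.06 for C1qc.

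Macrophage markers are given beside C1q. The mean of 10 macrophage genes was 14.36 on WT control 3 and 13.61 on Lcn2-/- control 3, and ran from 11.91 to 12.75 on the other controls and from 13.14 to 14.27 under CCl4. The mean of the 3 chains was 13.95 and 14.25 on the 2 control arrays numbered 3, 12.17 to 12.90 on the other controls and 13.04 to 13.96 under CCl4. On the same arrays the mean of 7 resident Kupffer cell genes was 13.11 and 13.42, against 11.33 to 12.06 on the other controls and 10.60 to 11.58 under CCl4. Of those 7, Clec4f, Timd4 and Cd163 were lower in WT under CCl4 and Cd163 in Lcn2-/-, over all arrays. A list of 6 genes of scar-associated macrophages ran from 9.47 to 11.74 in controls and from 12.86 to 14.53 under CCl4, and 4 of its 6 genes (Gpnmb, Trem2, Spp1 and Mmp12) rose in both genotypes. It stood at 11.74 on WT control 3 and at 9.74 on Lcn2-/- control 3, between the other controls of that genotype. The Kupffer cell list was thus high with C1q on both of these control arrays and lower on every CCl4 array, while the scar-associated list was high on every CCl4 array. Of the 10 macrophage genes, Cd68 and Lyz2 rose in both. C1q was thus as high on 2 control arrays with high Kupffer cell genes as on CCl4 arrays with high scar-associated genes, and the part of these cells in the C1q signal was not tested.

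**Figure D2:**
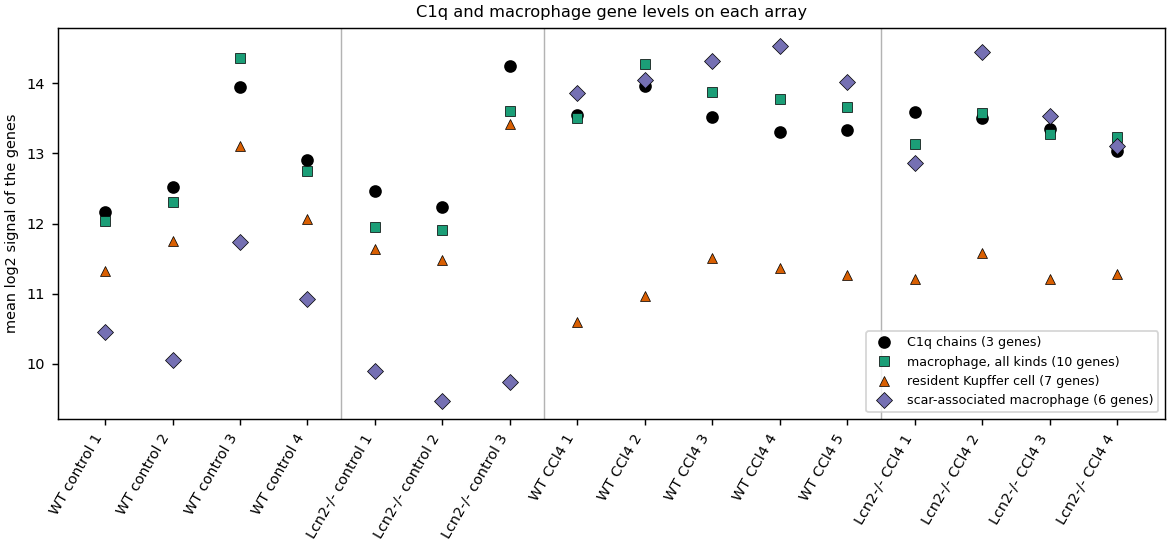
Mean log2 signal (y axis) of the 3 C1q chains and of 3 macrophage marker lists on each of the 16 arrays (x axis), 1 point per list and array. The C1q point of WT control 3 (13.95) lies within the range of the CCl4 arrays (13.04 to 13.96) and that of Lcn2-/- control 3 (14.25) above it. The Kupffer cell points of these 2 arrays sit above those of all other arrays.

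C3ar1, the receptor through which myeloid cells sense the C3a fragment, was the one member that rose. It was read by a probe on chromosome 6 from 122798222 to 122798281 (mm9, minus strand), whose first 30 bases are given as the identity of that signal.
C3ar1: tgccatcatctcagtgtagcacacacaatc

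C3ar1 read 7.27, 7.46, 8.02 and 6.88 in WT controls and 8.22, 9.55, 9.61, 9.14 and 7.83 in WT CCl4 livers. In Lcn2-/- it read 6.55, 6.76 and 6.55 in controls and 8.63, 9.78, 8.30 and 7.24 under CCl4. WT CCl4 5 fell below WT control 3, so the WT groups overlapped at that point, and the Lcn2-/- groups did not. The rise was 1.47 (SE 0.462, adjusted p = 0.043, 2.76-fold) in WT and 1.87 (SE 0.526, adjusted p = 0.0324, 3.65-fold) in Lcn2-/-. The call was close to the threshold. In WT it was lost when WT control 1, 2 or 4, any Lcn2-/- control, WT CCl4 2, 3 or 4, or Lcn2-/- CCl4 1 or 3 was left out (11 of 16 arrays, adjusted p 0.0511 to 0.11). In Lcn2-/- it was lost without any 1 Lcn2-/- control or without Lcn2-/- CCl4 1, 2 or 3 (6 arrays, 0.0551 to 0.101). Without the filter on dim probes it did not pass either (0.0682 in WT, 0.0512 in Lcn2-/-), nor did it in Lcn2-/- with normexp background correction (0.0516) or a fit of the 7 Lcn2-/- arrays alone (0.0888).

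The other myeloid members did not pass. C5ar1, the receptor of C5a, read 3.70, 2.91, 5.66 and 6.16 in WT controls and 4.83 to 5.45 in WT CCl4 livers, and it was well above background on 2 of 4 and 4 of 5 of these arrays. Its WT difference was 0.56 (SE 0.586, adjusted p = 0.561), or 0.26 without WT control 1, -0.0087 without WT control 2 and 1.08 without WT control 4. Its Lcn2-/- arrays (2.88 to 5.06 in controls, 4.36 to 4.83 under CCl4) were never well above background, so no fold is given between them, though array weights gave a call there (adjusted p = 0.0392). Cfp, properdin, which stabilises the C3 convertase of the alternative pathway, was highest on the 2 control arrays numbered 3 (14.59 and 14.71). Its difference was -0.50 in WT (SE 0.325, adjusted p = 0.325) and -0.35 in Lcn2-/- (SE 0.37, adjusted p = 0.593). Without these 2 arrays it was -0.19 (adjusted p = 0.6) and 0.07 (0.898). In the same fit C3ar1 rose by 1.67 in WT (0.0361) and had a difference of 1.83 in Lcn2-/- (0.0667), and C5ar1 had one of 0.91 in WT (0.247). Neutrophil genes, whose cells also carry C5ar1 and properdin, stood high on the same arrays. The mean of 12 was 9.88 and 10.34, against 7.01 to 8.13 on the other controls and 9.47 to 10.87 under CCl4. Over all arrays, the 2 control arrays numbered 3 included, 8 of the 12 rose in WT under CCl4 and 2 in Lcn2-/-. The part of neutrophils in these signals was not tested. C1q and Cfp thus shared their high control arrays, and C3ar1 did so in WT, where WT control 3 was the highest control, but not in Lcn2-/-.

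**Figure D3:**
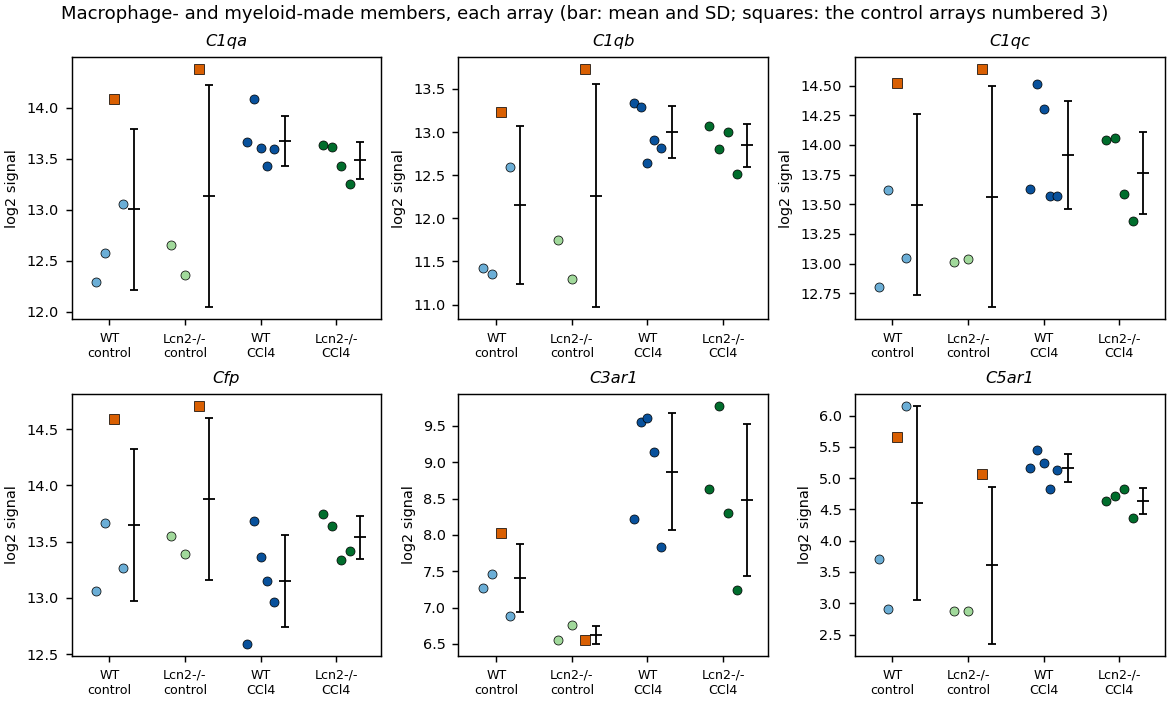
Log2 signal (y axis) of the 6 myeloid members in the 4 groups, 1 point per array, with the group mean and SD. The control arrays numbered 3 are marked: they carry the highest control values of C1qa, C1qb, C1qc and Cfp, whereas C3ar1 shows its highest values among the CCl4 arrays.

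The lectin pathway held 2 of the 7 lower members. Masp1 and Masp2 encode the serine proteases that travel with mannose-binding lectins and ficolins, and MASP-2 cleaves C4 and C2. Their probes lie on chromosome 16 from 23449609 to 23449668 (minus strand) and chromosome 4 from 147978456 to 147978515 (plus strand) in mm9, and the first 30 bases identify each.
Masp1: tccaggcaactgaaatctacctcccgagaa
Masp2: aggctggaatgactgccagctacagcaccc

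Masp1 read 15.71, 15.72, 15.45 and 15.43 in WT controls and 14.65, 14.66, 14.99, 14.81 and 14.58 in WT CCl4 livers. Lcn2-/- livers read 15.66, 15.64 and 15.58 in controls and 14.98, 14.99, 15.14 and 14.91 under CCl4. Every CCl4 array lay below every control in both genotypes. Masp1 fell by 0.84 in WT (SE 0.105, adjusted p = 9.35e-05, 1.79-fold lower) and by 0.62 in Lcn2-/- (SE 0.119, adjusted p = 0.00347, 1.54-fold lower). A second Masp1 probe also fell, by 0.75 in WT (adjusted p over all probes = 0.0486) and by 0.96 in Lcn2-/- (0.0362). Masp2 read 15.93, 16.04, 15.71 and 15.67 in WT controls and 15.22, 15.47, 15.53, 15.40 and 15.34 in WT CCl4 livers. The Lcn2-/- arrays read 15.79, 15.90 and 15.76 in controls and 15.60, 15.69, 15.58 and 15.51 under CCl4. The groups were apart in both genotypes, by a narrower gap than for Masp1. Masp2 fell by 0.45 in WT (SE 0.0995, adjusted p = 0.00676), and its Lcn2-/- difference of -0.23 (SE 0.113, adjusted p = 0.216) did not pass. Of 2 other Masp2 probes, 1 fell by 0.50 in WT (adjusted p over all probes = 0.0347) and the other differed by -0.22 (0.265). The lectins themselves did not pass: Mbl1 differed by -0.12 in WT and -0.09 in Lcn2-/-, and Mbl2 by 0.27 (adjusted p = 0.203) and 0.15 (adjusted p = 0.587). Mbl2 passed in WT without both control arrays numbered 3 (0.39, adjusted p = 0.0301) and with array weights (0.36, adjusted p = 0.029). Cfb, factor B of the alternative pathway, did so too (0.31, 0.0464 and 0.28, 0.0357), from 0.21 over all arrays (adjusted p = 0.219). With 75th percentile scaling both lay below 0 in WT (Mbl2 -0.17, adjusted p = 0.265, and Cfb -0.27, adjusted p = 0.13), so neither has a settled direction. Without WT control 2 the Mbl2 difference was 0.16 (adjusted p = 0.52).

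Of the terminal components, C6, C8a and C8b fell in WT, while C9 and Hc did not pass with quantile normalization. C6, C8a and C8b encode parts of the membrane attack complex, which C5b starts and C9 completes as a pore. C8a and C8b are neighbours, with probes within 11.4 kb of chromosome 4 (104477094 to 104488538, mm9, C8a on the minus and C8b on the plus strand). C6 was read on chromosome 15 from 4748363 to 4748422 (plus strand). The first 30 bases of the 3 probes identify the falling signals.
C6: ttgctggaccatcaaggtatacatgcaagg
C8a: gaacctggatggactttttaacagatcaac
C8b: catcccttggtaagcacagagtcttcttca

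C6 read 15.08, 15.18, 14.43 and 14.49 in WT controls and 12.44, 13.94, 13.86, 12.60 and 12.26 in WT CCl4 livers. In Lcn2-/- it read 15.04, 15.30 and 14.58 in controls and 13.90, 13.30, 13.92 and 14.10 under CCl4. No CCl4 array reached a control, and WT CCl4 1, 4 and 5 were the lowest of all. C6 fell by 1.78 in WT (SE 0.35, adjusted p = 0.003, 3.43-fold lower), and its Lcn2-/- difference was -1.17 (SE 0.399, adjusted p = 0.0718), which passed with 75th percentile scaling (-1.26, 0.0448) and with array weights (-1.25, 0.0127). C8b read 16.71, 16.47, 16.09 and 16.22 in WT controls and 14.99, 14.81, 15.67, 14.90 and 15.22 in WT CCl4 livers. Lcn2-/- livers read 16.66, 16.80 and 16.62 in controls and 15.17, 15.32, 16.01 and 16.12 under CCl4. The groups were apart in both genotypes. C8b fell by 1.25 in WT (SE 0.222, adjusted p = 0.00137, 2.38-fold lower) and by 1.04 in Lcn2-/- (SE 0.252, adjusted p = 0.0152, 2.05-fold lower). The Lcn2-/- call was lost without Lcn2-/- control 1 (-1.05, adjusted p = 0.0504) or 2 (-0.98, 0.0654) and in a fit of the 7 Lcn2-/- arrays alone (0.0637). In that fit 2 members passed, both lower, and 1757 of all genes.

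C8a read 16.80, 16.93, 16.49 and 16.72 in WT controls and 15.70, 15.87, 16.52, 16.03 and 15.91 in WT CCl4 livers. The Lcn2-/- arrays read 16.67, 16.82 and 16.54 in controls and 15.97, 15.65, 16.23 and 16.48 under CCl4. WT CCl4 3 lay just above WT control 3, and the Lcn2-/- groups were apart. C8a fell by 0.73 in WT (SE 0.183, adjusted p = 0.014, 1.66-fold lower), and its Lcn2-/- difference was -0.59 (SE 0.208, adjusted p = 0.0799), which passed with array weights (-0.62, 0.0122). The WT call was lost without WT control 2 (-0.66, adjusted p = 0.0527). A second C8a probe fell in both genotypes, by 0.90 in WT (adjusted p over all probes = 0.0049) and by 0.77 in Lcn2-/- (0.0333). The pore-forming C9 differed by -0.47 in WT (SE 0.274, adjusted p = 0.269; -0.29 without WT control 4) and Hc, which encodes C5, by -0.06 (SE 0.0788, adjusted p = 0.673). C7, dim on this platform, read 4.19 to 5.45 over all arrays and differed by 0.12 in WT (adjusted p = 0.772).

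**Figure D4:**
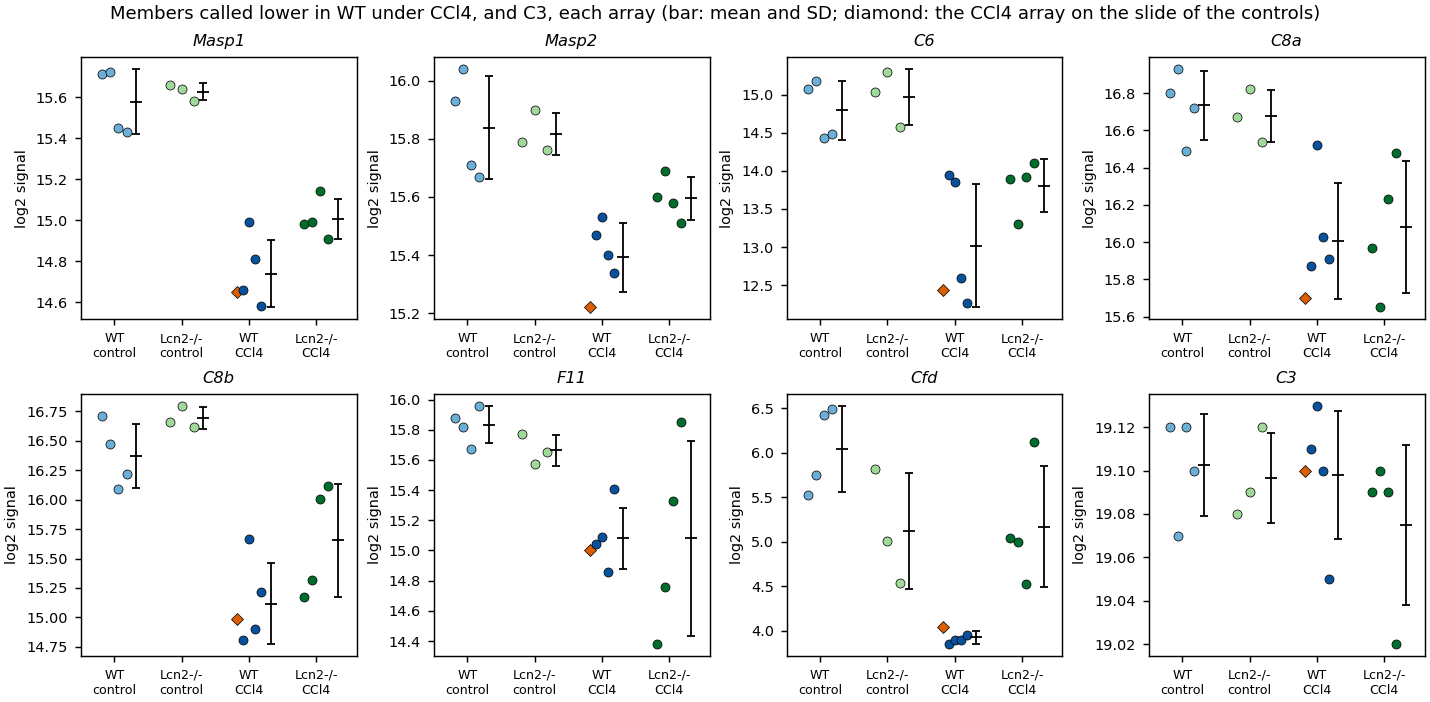
Log2 signal (y axis) of the 7 members that were lower under CCl4 in WT, and of C3, in the 4 groups, 1 point per array with the group mean and SD. C3 was not lower with quantile normalization. The diamond is WT CCl4 1, the one CCl4 array on the slide of the controls. It lies below all 4 WT controls for each of the 7 lower members and within their range for C3.

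The promoters of C8a and C8b are shown because these neighbouring genes fell together, each as the 250 bases before the annotated start (RefSeq, GRCm38.p6). Capitals mark matches to the HNF1 letters GTTAAT or the STAT motif TTCNNNGAA, searched on both strands. C8a spans chr4:104876399-104876648 on the minus strand and C8b spans chr4:104766067-104766316 on the plus strand.
C8a promoter: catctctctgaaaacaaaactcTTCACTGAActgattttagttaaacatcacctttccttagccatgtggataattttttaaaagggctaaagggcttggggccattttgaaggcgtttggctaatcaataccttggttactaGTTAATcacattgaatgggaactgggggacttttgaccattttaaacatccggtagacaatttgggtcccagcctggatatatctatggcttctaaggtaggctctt
C8b promoter: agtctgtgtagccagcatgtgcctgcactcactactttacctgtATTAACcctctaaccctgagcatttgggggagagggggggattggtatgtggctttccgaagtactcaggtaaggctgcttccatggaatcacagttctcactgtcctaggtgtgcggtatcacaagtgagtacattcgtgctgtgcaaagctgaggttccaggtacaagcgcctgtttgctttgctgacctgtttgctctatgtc

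In C8a the STAT letters began 228 bases before the start with the HNF1 letters between them and the start, and in C8b the HNF1 letters began 206 bases before it. Promoters were matched by symbol for 33 of the 43 members, 26 of them hepatocyte-made. The HNF1 letters were in 7 of these 26 (26.9%), the C/EBP motif TTGCNNAA in 7 (26.9%) and the STAT motif in 6 (23.1%). Among all 32851 promoters of the same length the shares were 6.43%, 9.56% and 7.02%. Of the 6 lower members with a promoter, 2 held the HNF1 letters, 1 the C/EBP letters and 2 the STAT letters, against 5, 6 and 4 of the 21 hepatocyte-made members that were not lower. The 6 include Cfd, which is not hepatocyte-made and held none of these letters. The HNF4 letters CAAAGTCCA were in none of the 26 windows and in 0.384% of all promoters. The PU.1 letters GAGGAAGT, known from myeloid genes, were in 1 of 5 myeloid members (C1qc) and in 2.44% of all promoters. A match is a description of the letters and not a site in use.

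Among the clotting factors, F11 fell in WT. It encodes factor XI, which activates factor IX, and was read on chromosome 8 from 46326753 to 46326812 (mm9, minus strand), near Klkb1, the gene of plasma prekallikrein, within 28.4 kb. The first 30 bases of its probe are given to identify it.
F11: aaacagtctgaaagagttcaactggtatca

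F11 read 15.88, 15.82, 15.67 and 15.96 in WT controls and 15.00, 15.04, 15.09, 14.86 and 15.41 in WT CCl4 livers. In Lcn2-/- it read 15.77, 15.57 and 15.65 in controls and 14.38, 14.76, 15.33 and 15.85 under CCl4. The WT groups were apart, whereas Lcn2-/- CCl4 4 lay above every Lcn2-/- control. F11 fell by 0.75 in WT (SE 0.226, adjusted p = 0.0343, 1.69-fold lower), and its Lcn2-/- difference was -0.58 (SE 0.257, adjusted p = 0.161), or -0.35 without Lcn2-/- CCl4 1 (0.349), and passed with array weights (-0.66, 0.0158). The WT call was lost without WT control 1, 2 or 4 or WT CCl4 1, 2, 3 or 4 (adjusted p 0.0545 to 0.0888), and without the filter on dim probes (0.0511). The neighbouring Klkb1 differed by -0.08 in WT (SE 0.11, adjusted p = 0.689). F2, prothrombin, differed by 0.01 (SE 0.0915) in WT and 0.01 (SE 0.104) in Lcn2-/-, and F5, a cofactor that speeds thrombin formation, by -0.26 (SE 0.117, adjusted p = 0.14) and -0.27 (SE 0.133, adjusted p = 0.208). With 75th percentile scaling F2 was lower in WT (-0.45, adjusted p = 0.0494) and differed by -0.42 in Lcn2-/- (0.125). F5 passed in WT with 75th percentile scaling (-0.48, adjusted p = 0.0193) and with array weights (-0.27, 0.0344). A second F5 probe differed by -0.165 in WT (adjusted p over all probes = 0.536) and by 0.216 in Lcn2-/- (0.493). Over the 8 clotting factors, the WT differences ran from -0.75 to 0.16 and the Lcn2-/- differences from -0.58 to 0.22, with F11 lowest in both.

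The 3 fibrinogen chains, which thrombin turns into fibrin, lie within 27.6 kb of chromosome 3 (82818825 to 82846393, mm9) and none passed the test with quantile normalization. Fgb was 18.81 to 18.89 in WT controls, 18.88 to 18.97 in WT CCl4, 18.78 to 18.82 in Lcn2-/- controls and 18.73 to 18.88 in Lcn2-/- CCl4 livers. Fgg was 18.73 to 18.91, 18.60 to 18.92, 18.85 to 18.89 and 18.55 to 18.79 in the same order. Control and CCl4 groups overlapped except for Fgg in Lcn2-/-. The WT differences were 0.06 (SE 0.0698) for Fgb and -0.07 (SE 0.0893) for Fgg, with 95% intervals of -0.09 to 0.21 and -0.26 to 0.12. Fga depended on the probe. The probe taken for the gene differed by -0.18 in WT (SE 0.192) and 0.13 in Lcn2-/- (SE 0.218), whereas a second probe 3' of it on the plus strand differed by 0.25 in WT and rose by 0.70 in Lcn2-/- (SE 0.15, adjusted p over all probes = 0.00754). The first 30 bases of both are shown because they give different readings of 1 gene, the taken probe at 82835678 to 82835737 and the second at 82837260 to 82837319.
Fga probe taken: caaagaatttggcagtaagacccattctga
Fga second probe: ggttcccttcagaggagcagattattccct

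The promoters of Fga (chr3:83025903-83026152, plus strand) and Fgb (chr3:83049864-83050113, minus strand) in GRCm38.p6 are given as the 2 members whose windows held all of the HNF1, C/EBP and STAT letters, in capitals. In Fga they began 43, 135 and 234 bases before the start, and in Fgb 29, 80 and 162 bases before it.
Fga promoter: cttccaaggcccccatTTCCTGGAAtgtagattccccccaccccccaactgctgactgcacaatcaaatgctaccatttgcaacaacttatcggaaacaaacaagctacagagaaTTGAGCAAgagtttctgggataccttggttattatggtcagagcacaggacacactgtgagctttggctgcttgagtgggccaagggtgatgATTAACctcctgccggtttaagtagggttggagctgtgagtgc
Fgb promoter: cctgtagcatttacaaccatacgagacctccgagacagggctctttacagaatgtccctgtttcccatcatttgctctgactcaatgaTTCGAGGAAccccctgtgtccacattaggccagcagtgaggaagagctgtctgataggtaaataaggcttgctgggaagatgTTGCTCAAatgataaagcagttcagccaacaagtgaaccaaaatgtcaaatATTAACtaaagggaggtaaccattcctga

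With quantile normalization the central components showed small differences with narrow errors. C3, on which all 3 entries converge, read 19.07 to 19.12 in WT controls and 19.05 to 19.13 in WT CCl4 livers, a difference of -0.0034 (SE 0.0676, 95% interval -0.15 to 0.14). With 75th percentile scaling the WT difference was -0.54 (adjusted p = 0.0344). A second C3 probe differed by 0.17 in WT (adjusted p over all probes = 0.22) and 0.21 in Lcn2-/- (0.188). C4b, cleaved by C1s and MASP-2, differed by 0.10 in WT (SE 0.0805, adjusted p = 0.44) and 0.01 in Lcn2-/- (SE 0.0917). With 75th percentile scaling C4b was lower in WT (-0.41, adjusted p = 0.0342). Among the regulators Cfi, factor I, which cuts C3b and C4b, was higher on every WT CCl4 array than on any WT control, but its difference of 0.20 (SE 0.0776, adjusted p = 0.0973) did not pass. It passed with array weights (0.23, adjusted p = 0.0201) and lay below 0 with 75th percentile scaling (-0.23, adjusted p = 0.17). Serping1, C1 inhibitor, differed by -0.19 (SE 0.121, adjusted p = 0.306) but was lower with 75th percentile scaling in WT (-0.59, adjusted p = 0.00438) and Lcn2-/- (-0.53, 0.0254). C4bp, a cofactor of factor I, differed by 0.13 (SE 0.132, adjusted p = 0.55). The 4 anticoagulants Serpinc1, Serpind1, Proc and Pros1 differed by 0.01 to 0.26 in WT and by -0.06 to 0.18 in Lcn2-/-. With 75th percentile scaling Serpinc1 was lower in WT (-0.48, adjusted p = 0.0495), and Serpind1 (-0.25) and Proc (-0.35) lay below 0 without passing. Pros1 passed in WT with array weights (0.37, adjusted p = 0.0346). Plg, plasminogen, differed by 0.03 and 0.19, and was higher on every Lcn2-/- CCl4 array than on any Lcn2-/- control without passing the test (adjusted p = 0.239). With 75th percentile scaling Plg lay below 0 in both (-0.39 and -0.19). Of the 35 hepatocyte-made members, 29 did not pass in WT with quantile normalization, and 28 of these differed by under 0.3 in size. With that normalization the 95% interval lay within 0.5 of 0 for 23 of the 35 in WT and for 23 in Lcn2-/-.

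Cfd, factor D, the protease that cleaves factor B and is made chiefly by fat cells, was dim. It read 5.52, 5.75, 6.42 and 6.49 in WT controls, all well above background, and 4.04, 3.85, 3.89, 3.89 and 3.95 in WT CCl4 livers, none of which was. Lcn2-/- livers read 5.82, 5.01 and 4.53 in controls and 5.04, 5.00, 4.52 and 6.12 under CCl4, with 1 array of each group above background. The WT groups were apart and the Lcn2-/- groups overlapped. Cfd was at least 2.44-fold lower in WT under CCl4 (adjusted p = 0.000348), a bound because the WT CCl4 signal was not well above background. With normexp background correction, run with an offset of 50, the WT difference was smaller (-0.66, adjusted p = 0.004). The bound therefore applies only without that correction. Its Lcn2-/- difference was 0.05 (SE 0.356, adjusted p = 0.948). The responses of both genotypes did not differ past the threshold (adjusted p = 0.399), a test that rests in part on signals at background. Of 6 adipocyte markers, Adipoq, Plin1 and Lep were not among the genes tested. The mean of Retn, Cidec and Fabp4 ran from 8.83 to 9.48 in WT controls and from 9.04 to 10.35 in WT CCl4 livers, where Fabp4 rose by 0.97. The part of adipose tissue in the Cfd signal was not tested.

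The slide was examined through WT CCl4 1, which shared its slide with the controls. Against the mean of the 4 WT controls its log2 difference was -0.93 for Masp1, -0.61 for Masp2, -2.35 for C6, -1.04 for C8a, -1.39 for C8b and -0.83 for F11, each beyond the range of those controls. Its Cfd signal lay below all 4 WT controls but, as on every WT CCl4 array, not well above background. C3ar1 was 0.82 higher on it, also beyond their range. The difference within the slide was larger than that of the other 4 WT CCl4 arrays for each of these 6 members. For C3ar1 the other 4 differed by 1.63. With the slide as a block, which rests on that array alone, 4 members passed in WT (Masp1, C6, Masp2 and Cfd, adjusted p 0.0101 to 0.0483), against 5.35% of all genes. In Lcn2-/- 0 passed in limma, against 1.74% of all genes, and 5 had an unadjusted p under 0.05, against 15.9%. The Lcn2-/- differences in that fit were -0.74 for Masp1 (adjusted p = 0.104) and -1.20 for C8b (0.22), at least as large as without the block, and 1.06 for C3ar1 (0.621), down from 1.87.

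Between genotypes, 0 members passed under CCl4 (0.636% of all genes did) and 0 in controls (0.53%), and 0 passed for the difference between both responses (0.0534%). At an unadjusted p under 0.05 the limma counts were 4, 1 and 1 of 43, against 13.7%, 8.3% and 3.33% of all genes. Under CCl4 the lowest adjusted p was that of Cfd, higher in Lcn2-/- (adjusted p = 0.104), with no fold given because 1 of 4 Lcn2-/- CCl4 arrays and 0 of 5 WT CCl4 arrays were well above background. Groups did not overlap there for 4 members, C4b, Cfd, C5ar1 and Fgb (9.3%, against 5.66% of all genes), and in controls for 2, C3ar1 and Serpinf2, the gene of the plasmin inhibitor (4.65%, against 9.64%). Under CCl4 Cfd and C5ar1 were dim, and C5ar1 was never well above background in Lcn2-/-. For C5ar1 and Fgb the gap was too small to show in the rounded values. Among the hepatocyte-made members under CCl4, Masp1 was 0.27 higher in Lcn2-/- (SE 0.105, adjusted p = 0.299), C8b 0.54 (SE 0.222, adjusted p = 0.314) and C6 0.79 (SE 0.35, adjusted p = 0.343). The 95% intervals of these were 0.04 to 0.49, 0.06 to 1.01 and 0.04 to 1.54. A second Masp1 probe went the other way, differing by -0.18 under CCl4 (limma adjusted p over all probes = 0.803). The fibrinogen chains differed between genotypes by -0.11 to 0.14 under CCl4 and the C1q chains by -0.19 to -0.16. With 75th percentile scaling these ranges were 0.13 to 0.31 and -0.12 to -0.07. Under CCl4 that scaling moved the median of the members from -0.02 to 0.19 and that of all genes to 0.07, and 0 members passed. With quantile normalization the 95% interval under CCl4 lay within 0.5 of 0 for 28 of the 35 hepatocyte-made members. For the members called in WT other than Cfd, the responses differed between genotypes by 0.14 to 0.61, each with an adjusted p of 1. By the second Masp1 probe the responses differed by -0.21.

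The scaling of the arrays bore on the direction of many members. On these arrays 12 of the 43 lay among the 244 brightest genes, the brightest 1%: Mbl2, C4b, C3, Cfb, Hc, C4bp, F2, F10, Kng1, Fgb, Fgg and Serpinc1. Quantile normalization gives each array the same distribution, so genes at the top can differ there only by rank. When each array was instead scaled by its 75th percentile, the median of all genes moved to -0.16 in WT and -0.14 in Lcn2-/-. The median of the members moved to -0.41 and -0.28. Then 17 members were lower in WT and 0 higher, against 14.6% of all genes lower, and 6 were lower in Lcn2-/-, against 8.5% of all genes. Of the 12 bright members, 7 passed in WT under that scaling and 0 with quantile normalization, and their median was -0.46 against 0.03. The bright members that passed in WT were C3 (-0.54, adjusted p = 0.0344), Hc (-0.54, 0.0106), Fgg (-0.57, 0.034), F10 (-0.60, 0.0231), C4b, F2 and Serpinc1. Of the other 31 members, 10 passed in WT under that scaling and 8 with quantile normalization, and their median was -0.30 against -0.08. These 10 were the 7 lower members with Serping1, F5 and Serpinf2 (-0.43, adjusted p = 0.0452). In Lcn2-/- the 6 were Masp1, C8b, C6, Serping1, Hc (-0.61, 0.0159) and F10 (-0.64, 0.0403). In WT 13 of the 20 members above 0 turned to below 0, with values of -0.14 to -0.48: C4b, C4bp, C7, Cfb, Cfi, F2, Fgb, Kng1, Mbl2, Plg, Proc, Serpinc1 and Serpind1. Of these C4b (-0.41), F2 (-0.45) and Serpinc1 (-0.48) passed. In Lcn2-/- 15 of 23 turned to below 0. The hepatocyte markers moved alongside, with 4 of 11 passing at a median of -0.50. The 7 lower members stayed lower under both scalings, and the C3ar1 rise of 1.35 in WT (adjusted p = 0.0676) and 1.62 in Lcn2-/- (0.0737) did not pass with the 75th percentile. F10 depended on the probe. With quantile normalization the probe taken differed by -0.08 in WT and -0.20 in Lcn2-/-. A second F10 probe differed by 0.21 and 0.15, and neither probe passed.

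**Figure D5:**
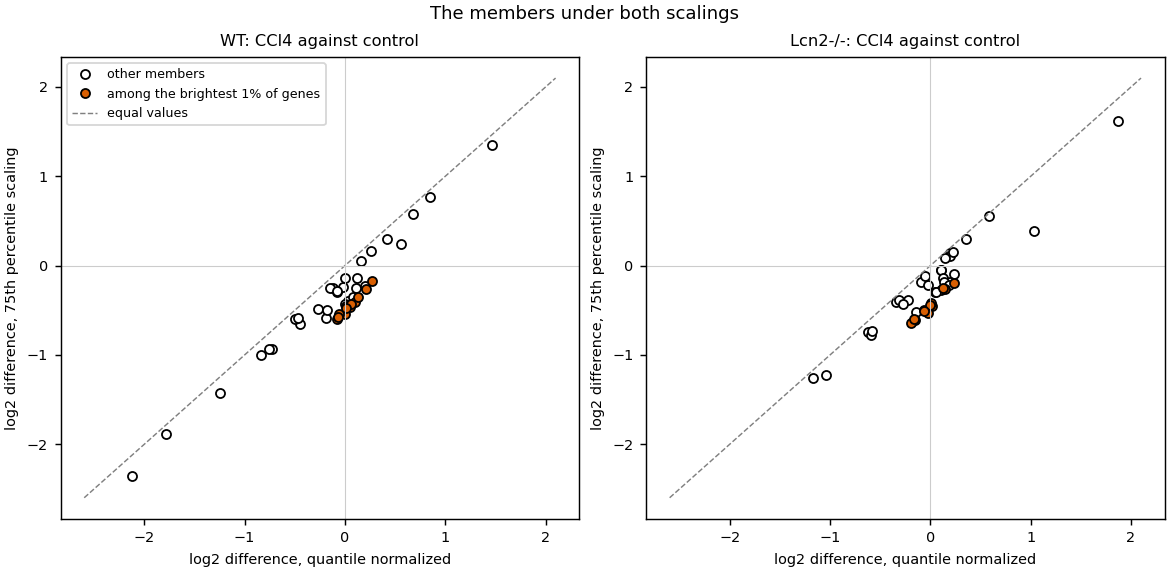
Log2 difference of each member with quantile normalization (x axis) and with 75th percentile scaling (y axis), in WT on the left and Lcn2-/- on the right, 1 point per member. The orange points, the 12 members among the brightest 1% of genes, lie near 0 on the x axis (median 0.03 in WT) and below 0 on the y axis (median -0.46).

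Of 69 other complement and coagulation genes listed, 61 were tested. In WT 6 rose and 2 fell (13.1%, against 16.8% of all genes), and in Lcn2-/- 7 rose and 4 fell (18%, against 12.2%). Itgax, the alpha chain of complement receptor 4, rose by 4.08 in WT (adjusted p = 0.00178) and 4.69 in Lcn2-/- (0.00251). Plat, tissue plasminogen activator, rose by 3.55 in WT (7.74e-05) and at least 12.4-fold in Lcn2-/- (0.000115). Plaur, the urokinase receptor, rose by 1.64 and 2.01, Anxa2, a plasminogen co-receptor, by 1.65 and 1.35, and Thbd, thrombomodulin, by 0.85 and 1.16. Susd4, a membrane inhibitor of complement, fell by 6.66 in WT (3.35e-08) and fell by 5.86 in Lcn2-/- (4.83e-07). Its arrays read 14.60 to 15.47 in the 7 controls and 7.36 to 10.09 in the 9 CCl4 livers. Fcna, the ficolin that carries the MASP proteases, fell by 1.03 and 0.91. In Lcn2-/- alone Serpine2, a thrombin inhibitor, fell by 1.84 (0.0123) and Cd59b, which blocks the attack pore, by 0.91 (0.0126). Their WT differences were -0.47 and -0.40, and the responses did not differ past the threshold (adjusted p = 1 for both). Adamts13, which trims von Willebrand factor, was the one gene of the list that differed between genotypes. Its probe lies on chromosome 2, which also carries Lcn2, from 26852318 to 26852377 (mm9). It read 8.81 to 9.20 in WT controls and 4.48 to 5.46 in Lcn2-/- controls, at least 11.1-fold lower (4.77e-06), and it was 2.66 lower on the log2 scale under CCl4 (0.000117). Whether the backcrossed line kept DNA of the original strains near Lcn2 was not tested, nor was its part in this difference.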

How the data were processed

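The authors labelled liver RNA with Cy3, hybridised it to Agilent arrays and deposited 1 scanner file per array. Per the file headers these hold spot intensity values on a linear scale, made with Agilent Feature Extraction 10.7.3.1 and not normalized between arrays. A series-wide log2 table that the authors deposited for the same 16 arrays was used as an alternative. The submitters' processing notes name limma, and no column of the authors' own comparisons was used. Probe positions are on mm9 in the files, and their place in exons or UTRs was not analysed here.

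Of 62976 spots, 3671 control spots and spots marked as outliers were left out. The log2 processed signal was quantile normalized, spots of a probe were averaged (55681 probes), and the 33014 probes whose signal cleared background (the software's flag) on 3 or more arrays were tested. The brightest probe stood for each symbol, giving 24357 genes. Differences were tested in limma 3.58.1 (R 4.3.3) with 1 model over the 4 groups, 5 contrasts and no covariate, at an adjusted p under 0.05. The precision is limited by the number of arrays. On data simulated for the WT response over the 24357 genes, 200 genes were changed, with independent noise and no slide effect. There 62% of changes of 1 and 89% of changes of 2 on the log2 scale were recovered, with 11 false calls. Far fewer genes changed there than the 4094 called in WT, so these shares do not measure the power of the tests on these data. A fold against a group with no array above background is a bound, taken against the dimmest signal above it.

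The members and gene lists were chosen with earlier results of these data known. Named with values are the members past the threshold, the C1q and fibrinogen chains, both anaphylatoxin receptors, C3, C4b, Hc and F2, and of the other pathway genes the 10 with the largest change among those past it. Other genes named were chosen after their values were seen. Alternatives were other scaling, background correction, filters and probe rules, the authors' table, slide and replicate blocks, array weights and leaving arrays out. Replicate numbers were checked for pairing by the correlation across genes of deviations from group means. For the controls of both genotypes it was 0.233, 0.368 and 0.552 for numbers 1 to 3, which also share a column of the slide. In the other comparisons it ran from -0.221 to 0.252. Arrays with unlike numbers were not correlated, so these values cannot show whether the numbers pair arrays.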

Additional observations from a re-analysis of the deposited data

Results flagged for a closer look

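Of 129 sets of member values within a group of 4 or 5 arrays, 4 held an array far from the others by Dixon's test (3.1%), and chance alone marks about 1 set in 20. C3, the central component, read 19.02 on Lcn2-/- CCl4 4 and 19.09 to 19.10 on the other 3 arrays of that group. Hc, the gene of C5, read 18.17 on WT control 2 against 18.23 to 18.24 on the other WT controls. Serping1, C1 inhibitor, read 17.50 on WT CCl4 1, the array that shared its slide with the controls, against 17.81 to 17.86 on the other WT CCl4 arrays. Fgb read 18.97 on WT CCl4 3 against 18.88 to 18.90 on the others. With quantile normalization none of these 4 members passed limma's test in either response. With 75th percentile scaling C3, Hc and Serping1 were lower in WT (adjusted p = 0.0344, 0.0106 and 0.00438), and Hc and Serping1 in Lcn2-/- (0.0159 and 0.0254).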

How the results depend on the processing

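Members passing the test numbered 8 in the WT response and 3 in the Lcn2-/- response. With 75th percentile scaling they were 17 and 6, with the slide as a block 4 and 0, and with array weights 15 (7 higher, 8 lower) and 7 (2 higher, 5 lower). All genes passing numbered 4094 and 2968 as reported, 1302 and 425 with the slide block, and 7054 and 6954 with array weights. With 75th percentile scaling 13 members turned from above to below 0 in WT, of which C4b (-0.41), F2 (-0.45) and Serpinc1 (-0.48) passed, and 15 did in Lcn2-/-. Without both control arrays numbered 3 the member counts were 12 and 4 and the counts of all genes 5464 and 3689, an alternative added after seeing the data. When 1 array was left out the count ran from 5 (without WT control 2) to 10 (without WT control 3) in WT and from 1 (without Lcn2-/- control 1 or 2) to 5 (without Lcn2-/- CCl4 4) in Lcn2-/-. In those fits all genes passing numbered 2581 and 5110 in WT, and 1695, 1683 and 2727 in Lcn2-/-. It was 0 in both genotype comparisons and the interaction under every alternative run. The replicate number as a block gave 8, 3, 0, 0 and 0 members in the 5 contrasts and so changed no count. The cause of these shifts was not tested, apart from the scaling, which moved the median of all genes too. Scan and slide coincided, so the scan was not run apart. Dim signal limits Cfd, C5ar1 and C7, which have no value where every array had to be above background.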
